A study of Anopheles merus and Anopheles coluzzii with 36 samples.

Results

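The comparison was between larvae of 2 closely related mosquito species held in fresh water, 3 pools of Anopheles merus (A, B and C) against 3 pools of Anopheles coluzzii (A, B and D), which are 6 of the 36 RNA libraries of the study. The pools were taken by their labels alone, as those held at 0% of the salinity of seawater. All larvae were raised in fresh water to 18 h after hatching and then kept for 6 h at their test salinity, here again 0%, so these 6 pools never met salt. Each pool held 35 to 50 whole larvae, so fewer cells of a type and less RNA per cell cannot be told apart. No strain is named in the labels. Whether pools of a group were raised apart is not stated either. The p-values measure only how pools vary within groups, over all 36 libraries in the main fit. That variation may be technical. The other 30 libraries are 3 per species at each of 10, 20, 30, 40 and 50%. They are used below to ask which differences at 0% were also present in other pools. Their levels do not enter the size of the difference at 0%, but their spread enters its p-value in the main fit.

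Both species belong to the Anopheles gambiae complex, a group of mosquitoes that look alike as adults and include the main malaria vectors of Africa. An. coluzzii breeds in fresh water, whereas An. merus is found in brackish and saline pools and its larvae also develop in fresh water. In fresh water a larva gains water and loses salts. It takes up ions through its anal papillae, secretes primary urine in the Malpighian tubules and recovers ions from that urine in the rectum before it is voided. The comparison at 0% asks how the transcriptomes of a salt-tolerant and a fresh-water species differ before any exposure to salt.

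The deposited table gives genes by AGAP identifiers, the prefix of the An. gambiae gene set, and pairs them with no names. The reference table at hand holds An. merus genes, and 0 of its 16199 entries matched, so genes are given here by identifier, without names, roles, positions or sequences. The genome to which the reads were aligned is not given in the sources used. A species difference in how well reads aligned and a species difference in expression cannot be told apart for any gene below.

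The 6 pools held 9174563 to 19548005 counted reads, with the fewest in An. merus A. Values are CPM, that is, reads relative to the size of the library, after the authors' scaling between libraries. An. merus A also had the most genes without a read, 138, against 107 and 85 in B and C, and 28 to 37 in the An. coluzzii pools. Across the 8821 genes with a mean of at least 5 CPM, Pearson's r of log2 values was 0.957 to 0.975 between pools of An. merus, 0.952 to 0.984 between pools of An. coluzzii, and 0.858 to 0.933 between species. The lowest of these was between An. merus A and An. coluzzii D, and the highest between An. merus B and An. coluzzii A. Principal component 1 held 66.4% of the variance and separated the species but also spread the pools within each, from -50.8 for An. merus A to -29.99 for C, and from 28.6 for An. coluzzii A to 51.1 for D. The median SD per gene among the 3 pools at 0% was 0.221 log2 units for An. merus and 0.16 for An. coluzzii, and in the 10 other groups 0.09 to 0.16. Several counts below are therefore also given without the outermost pools, An. merus A and An. coluzzii D.

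**Figure D1:**
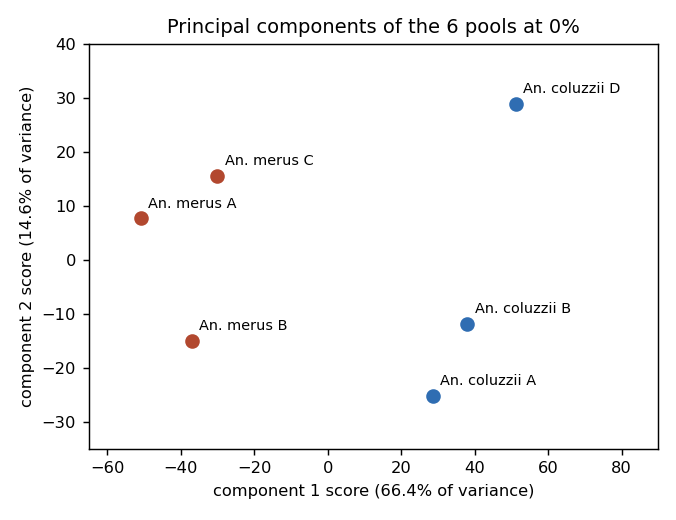
Principal components of the 6 pools at 0%, computed from log2(CPM + 0.5) of 10905 genes; each point is a pool, red for An. merus and blue for An. coluzzii, and the axes are scores with their share of the variance. The species lie on opposite sides of the first component, and An. merus A and An. coluzzii D are the pools farthest apart on it.

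The genes that differed most had a sizeable level in 1 species and almost none in the other. AGAP010613 measured 283, 188 and 198 CPM in An. merus A, B and C and 0.247, 0.235 and 0.307 CPM in An. coluzzii A, B and D. The ratio of the means was 847, and the lower mean rests on 16 reads in 3 pools. AGAP001354 measured 119, 75.1 and 67.6 CPM in An. merus and 0.791, 0.377 and 0.512 CPM in An. coluzzii, a ratio of 156. In both genes the groups were far apart and An. merus A was the highest pool.

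In the other direction, AGAP007187 measured 2.21, 0.872 and 1.25 CPM in An. merus and 593, 582 and 425 CPM in An. coluzzii. The ratio was 369.6 in favour of An. coluzzii. AGAP005598 measured 0.348, 0.125 and 0.771 CPM in An. merus and 148, 152 and 147 CPM in An. coluzzii, a ratio of 359. The An. coluzzii pools were close together, while the An. merus values came from 21 reads in all.

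These 4 genes are the 2 most higher and 2 most lower in An. merus under a rule for naming: past the threshold both with all 36 libraries and with the 6 pools alone, no overlap between groups, and a mean of at least 5 CPM over the 6 pools. In all, 1530 genes met it. As log2 differences on the scale of log2(CPM + 0.5), with limma, the 4 were 8.17 (95% interval 7.49 to 8.85) for AGAP010613, 6.35 (5.93 to 6.76) for AGAP001354, -8.14 (-8.60 to -7.69) for AGAP007187 and -7.41 (-7.81 to -7.01) for AGAP005598. With the 6 pools alone the limma adjusted p was 2.4e-06, 1.0e-05, 4.8e-06 and 4.8e-06 in the same order.

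The 4 genes kept their order between species at every salinity, but not always the size of the difference. Over the pools at 10 to 50%, AGAP010613 averaged 194 to 229 CPM in An. merus, and its highest An. coluzzii pool measured 3.88 CPM, at 40%. AGAP007187 had group means of 602 to 802 CPM in An. coluzzii over the same salinities, and its highest An. merus pool measured 1.58 CPM. AGAP005598 had a narrowing difference. Its An. coluzzii means were 149 ± 2.71 CPM in fresh water, 66.7 ± 2.58 CPM in 30%, 28.0 ± 4.90 CPM in 40% and 36.9 ± 3.86 CPM in 50% seawater (SD, n = 3). The An. merus means were 0.415 ± 0.329 CPM in fresh water and 0.641 ± 0.348 CPM in 50% seawater (SD, n = 3). Its log2 difference was -5.07 ± 0.20 at 50% (SE), and the change from 0% was 2.34 ± 0.28 (SE; limma adjusted p = 6.5e-08). For AGAP001354 the change from 0% was -1.10 ± 0.29 at 40% (SE; limma adjusted p = 0.0027) and -0.53 ± 0.29 at 50% (SE; limma adjusted p = 0.12), while the difference itself stayed above 5 log2 units.

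**Figure D2:**
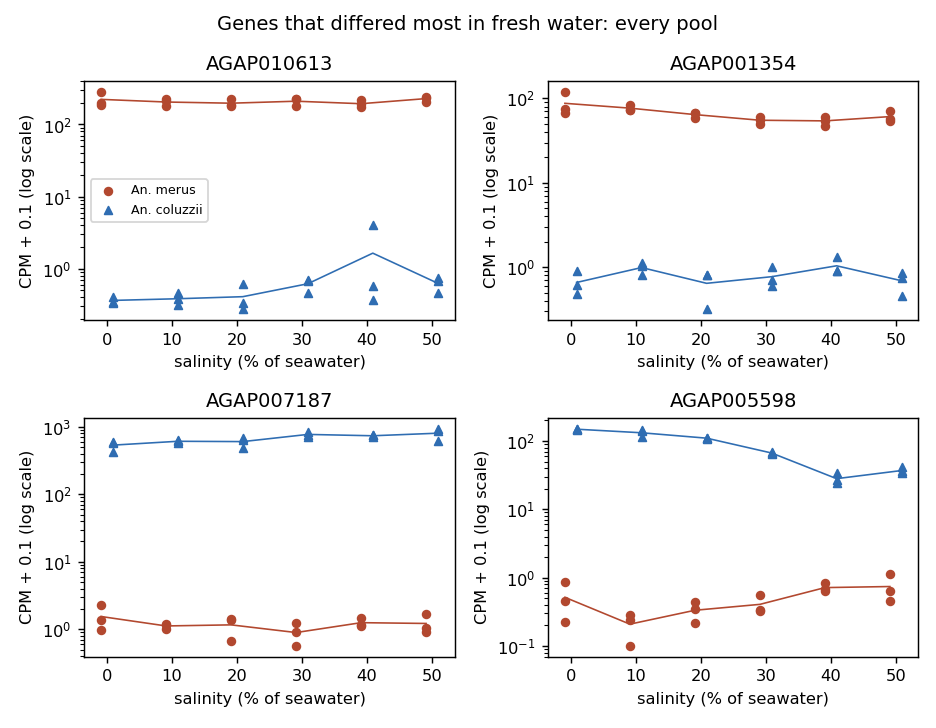
Level of the 4 genes that differed most at 0%, in every pool at every salinity (horizontal axis, % of seawater; vertical axis, CPM + 0.1 on a log scale); red circles are An. merus, blue triangles An. coluzzii, and lines join group means. The species do not overlap in any panel, and the mean of AGAP005598 in An. coluzzii is 149 CPM at 0% and 28.0 CPM at 40%.

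Over the whole table, 4741 of 10905 genes differed between the species at 0% (43.5%; limma on all 36 libraries, adjusted p under 0.05), 2399 higher and 2342 lower in An. merus. In that fit each gene has a single spread over all 12 groups, most of which varied less than the pools at 0%. With the 6 pools alone limma called 2092 genes (19.2%), 1101 higher and 991 lower, of which 2089 were also among the 4741. On the reads recovered from the table, edgeR called 4677 genes and DESeq2 4727 with all 36 libraries, sharing 4526 and 4465 with the 4741. With the 6 pools alone edgeR called 2120. Leaving out An. merus A gave 3744 genes, leaving out An. coluzzii D 4000, and leaving out both 3274. The even division into higher and lower depended on the scaling between libraries: 1973 were higher and 2653 lower with library totals as the scaling, and 2737 and 2221 with quantile normalization.

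Most differences were small. The median size among called genes was 0.64 log2 units (quartiles 0.45 and 0.97), and 2085 of them (44.0%) were under 1.5-fold. At least 2-fold differences were made by 1121 genes (10.3% of those tested), 483 higher (4.43%) and 638 lower (5.85%) in An. merus. Which direction was the more frequent depended on the scaling: library totals gave 424 higher and 730 lower, and quantile normalization 585 and 569. At least 4-fold differences were made by 94 higher and 194 lower, and at least 16-fold by 16 higher and 22 lower. Without An. merus A and An. coluzzii D together, 398 genes were at least 2-fold higher and 540 lower, and 88 and 153 at least 4-fold. Large differences were mostly also called with the 6 pools alone: 1001 of the 1121 genes (89.3%), 252 of the 288 (87.5%) and all 38 (100%), against 2089 of all 4741. The number at 4-fold depends on the constant added to each value, being 444 with 0.1 CPM and 139 with 2 CPM, and 522 by edgeR on the recovered reads. More genes were at least 4-fold lower than higher in An. merus in each of these (298 and 146, 88 and 51, 355 and 167).

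**Figure D3:**
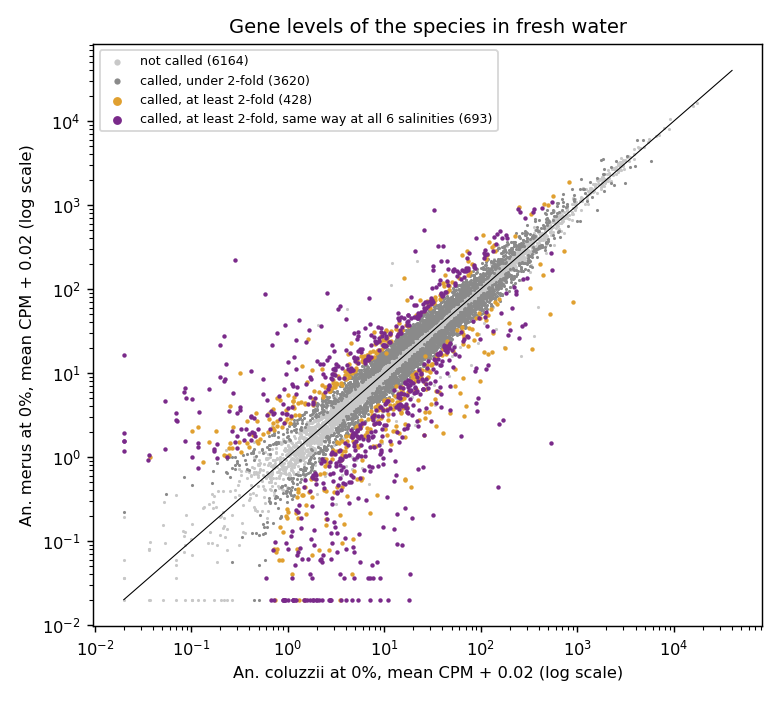
Mean level of each of 10905 genes in An. coluzzii (horizontal) and An. merus (vertical) at 0%, as CPM + 0.02 on log scales; light grey is not called, dark grey called under 2-fold, orange called at least 2-fold, and purple the 693 genes of these that were called in the same direction at all 6 salinities. Most genes lie near the line of equal level, and the points along the bottom edge are genes without a read in An. merus.

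The size of the difference was bounded closely for many genes. The 95% interval of the difference lay within 1.5-fold in either direction for 4653 genes (42.7%) and within 2-fold for 8263 (75.8%). It lay wholly beyond 2-fold for 552 genes, 232 higher and 320 lower in An. merus. Of the 6164 genes that were not called, 414 had an interval that reached 2-fold or more, so the interval does not exclude a difference of that size for them. These intervals use the spread over all 36 libraries.

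The most abundant transcripts were largely the same. Of the 100 most abundant genes of each species at 0%, 93 were shared. The 100 most abundant genes of a pool took 35.2 ± 2.03% of its reads in An. merus and 34.9 ± 0.168% in An. coluzzii (SD, n = 3). Of the 107 genes in either list, 21 were called (19.6%, against 43.5% of all genes), 14 higher and 7 lower in An. merus, and 1 of these by at least 2-fold. With the 6 pools alone 5 of the 107 were called with limma.

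Called differences of at least 2-fold were commoner among scarce transcripts, whose differences were also measured less precisely. The median SE was 0.221 log2 units under 1 CPM and 0.205 at 1 to 5 CPM. It was 0.145 at 5 to 50 CPM, 0.124 at 50 to 500 CPM and 0.122 at 500 CPM or more. How much this adds to the 2-fold counts was not tested. At a mean under 5 CPM, 444 of 2084 genes (21.3%) were called with at least 2-fold, against 8.59% at 5 to 50 CPM, 5.87% at 50 to 500 CPM and 4.53% at 500 CPM or more. The share called at all was nearly level up to 500 CPM, 45.9% under 1 CPM, 43.2% at 1 to 5 CPM, 44.0% at 5 to 50 CPM and 43.6% at 50 to 500 CPM, and lower, 29.97%, at 500 CPM or more. Direction also differed with level. Under 5 CPM 349 called genes were higher and 564 lower in An. merus, and at 500 CPM or more 68 were higher and 18 lower. Library totals gave 315 and 598 for the scarce genes and 66 and 36 for the abundant ones, whereas quantile normalization gave 517 and 388, the reverse order, and 60 and 57. Without An. merus A, the pool with the fewest reads, the numbers were 277 and 477 and 49 and 24. Without An. coluzzii D they were 306 and 487 and 62 and 12.

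Some genes were near the limit of detection in 1 species at 0%. A gene was counted here when no pool of that species had more than 3 reads and every pool of the other had at least 5 CPM. An. merus had 13 such genes and An. coluzzii 2. Allowing 1 CPM in the other species made them 57 and 15, and allowing at most 1 read in each pool 8 and 1. AGAP012436 had 0 reads in the An. merus pools and 17.9, 18.5 and 17.9 CPM in An. coluzzii A, B and D, at least 274-fold higher in An. coluzzii when 0 is replaced by 3 reads over the 3 pools. AGAP010724 had 1 read in An. merus B and none in A and C, against 21.6, 16.2 and 17.0 CPM in An. coluzzii. AGAP007150 had 20.5, 16.02 and 12.1 CPM in An. merus and 0 reads in An. coluzzii, at least 329.5-fold higher in An. merus on the same basis. AGAP001067 had 6.61, 7.04 and 6.08 CPM in An. merus and 4 reads in the An. coluzzii pools together. The choice of these 4 genes was made with their values in view. Whether any of them shares reads with a near-identical copy was not tested.

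In the 15 pools of the same species at other salinities, the 13 genes stayed at or under 0.316 CPM in An. merus, and the pair of genes at or under 0.134 CPM in An. coluzzii. In the species with the higher level, that level differed between salinities for some of them. AGAP012436 averaged 18.1 ± 0.309 CPM in An. coluzzii at 0% and 4.65 ± 0.102 CPM at 50%, and AGAP007150 16.2 ± 4.24 and 1.22 ± 0.409 CPM in An. merus (SD, n = 3). AGAP010724 had group means of 14.95 to 17.5 CPM in An. coluzzii at 10 to 50%. Not a single read was counted for 18 genes in any of the 18 An. merus pools, and for 3 genes in any An. coluzzii pool. The 18 genes had An. coluzzii means at 0% of 0.0171 to 5.32 CPM, so the lowest was near the floor in both species. All An. merus pools together held 281008000 counted reads, and those of An. coluzzii 352034000. The 3 were AGAP002803, AGAP008911 and AGAP010237, with An. merus means at 0% of 1.54 ± 0.496, 1.93 ± 0.372 and 1.52 ± 0.393 CPM (SD, n = 3).

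Whether the differences at 0% also stood in other pools was asked at each further salinity. The differences there share no library with those at 0%, but all calls share a single spread per gene from the 36 libraries. A gene with a small spread is thus more readily called at every salinity. At 10%, where 36.7% of all genes were called, 3322 of the 4741 genes (70.1%) were called in the same direction and 2 in the opposite one. For the 1121 genes of at least 2-fold, 1006 (89.7%) were called in the same direction at 10% and 1 in the opposite. Their median difference, in the direction seen at 0%, was 1.46 log2 units at 0%, where they were chosen for it, and 1.30 at 10%. To be called again a difference had to pass the same threshold, which a large one does more readily. These shares therefore do not show that small differences held less well at 10%.

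The number found again was similar up to 30% and lower at 40 and 50%. Of the 4741 genes, 3374 were called in the same direction at 20%, 3426 at 30%, 3055 at 40% and 2438 at 50%. The numbers called in the opposite direction were 10, 118, 469 and 965. The share of all genes called grew in parallel, 42.9, 57.5, 67.3 and 68.2%, and at 50% 4030 of the called genes had not been called at 0%. Over all genes, which are not independent replicates, Pearson's r between the species difference at 0% and that at another salinity was 0.918 at 10%, 0.891 at 20%, 0.763 at 30%, 0.619 at 40% and 0.430 at 50%.

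**Figure D4:**
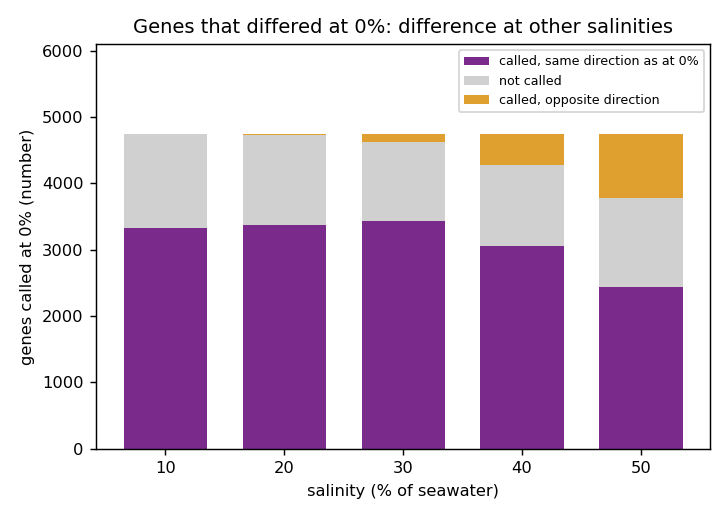
The 4741 genes called at 0%, divided at each other salinity (horizontal axis, % of seawater) into those called in the same direction (purple), not called (grey) and called in the opposite direction (orange); bar height is the number of genes. The orange part grows from 2 genes at 10% to 965 at 50%.

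At all 6 salinities 1451 genes were called in the same direction, 663 higher and 788 lower in An. merus, which is 30.6% of the 4741. This count ran from 1392 to 1466 when any of the 6 pools at 0% was left out, and 1096 of the genes were also called with the 6 pools alone. Such genes made up 61.8% of the differences of at least 2-fold, 77.8% of those of at least 4-fold and all 38 of at least 16-fold. At the other end, 374 of the 4741 genes (7.89%) were called in the same direction at no other salinity, 52 of them with at least 2-fold and 34 called with the 6 pools alone. Among all genes tested, 742 (6.80%) were called at no salinity. Of the 1451 genes, 902 had a difference that varied with salinity by the interaction F test (limma adjusted p under 0.05), a test that called 71.9% of all genes, and 549 did not pass it.

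The genes that crossed over were examined next. Of the 965 genes called in opposite directions at 0 and 50%, 528 were higher in An. merus at 0% and lower at 50%, and 437 the reverse. The number depended on the outermost pools: it was 601 without An. merus A, 611 without An. coluzzii D and 402 without both, up to 1255 without An. coluzzii A, and 93 of the 528 and 93 of the 437 were also called at 0% with the 6 pools alone. Of the 528, 204 fell between 10 and 50% in An. merus without a called rise in An. coluzzii, 155 rose in An. coluzzii without a called fall in An. merus, and 168 did both. Of the 437, 128 had a called rise in An. merus alone, 132 a called fall in An. coluzzii alone, and 170 had both. The same pools at 50% chose these genes and entered these responses, so a called change in some species was nearly built in. Only 1 of the 528 and 7 of the 437 had neither. A change that was not called may still be present, and the responses of the species from 10 to 50% were not tested against each other.

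AGAP006225 was higher in An. merus at 0%, 166, 175 and 161 CPM in A, B and C against 94.3, 67.2 and 46.3 CPM in An. coluzzii A, B and D. At 50% An. merus averaged 88.8 ± 11.8 CPM, and 159 ± 15.1 CPM was the mean of An. coluzzii (SD, n = 3). The log2 difference went from 1.32 ± 0.15 to -0.84 ± 0.15 (SE; limma adjusted p of the change 2.5e-09). Its mean in An. merus was 97.0 ± 10.7 CPM at 10%, and in An. coluzzii 102 ± 9.39 CPM at 40% (SD, n = 3).

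AGAP012029 was also higher in An. merus at 0%, with 19.96, 14.3 and 15.3 CPM against 8.16, 5.70 and 5.93 CPM. The An. merus mean was lower at each further salinity, 2.95 ± 0.310 CPM at 50% (SD, n = 3). In An. coluzzii the lowest mean was 1.81 ± 0.220 CPM, in 30% seawater, and the mean in 50% was 5.95 ± 1.59 CPM (SD, n = 3). The difference was 1.26 ± 0.19 at 0%, 2.07 ± 0.19 at 30% and -0.88 ± 0.19 at 50% (SE).

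AGAP005888 was lower in An. merus at 0%, with 28.4, 7.91 and 17.6 CPM against 63.0, 133 and 199.6 CPM in An. coluzzii. Pools of both groups were widely spread, but did not overlap. In An. coluzzii it averaged 231 ± 117 CPM in 40% and 11.4 ± 3.44 CPM in 50% seawater (SD, n = 3), below the 48.8 ± 11.4 CPM of An. merus at 50%. AGAP006986 had 1.62, 2.18 and 2.22 CPM in An. merus at 0% against 4.80, 25.3 and 9.72 CPM in An. coluzzii, and at 50% averaged 38.5 ± 40.7 CPM against 6.07 ± 5.39 CPM (SD, n = 3). Its difference at 0% (-2.16 ± 0.65 SE, limma adjusted p = 0.0081) lost its call without An. coluzzii B (the highest pool), or without An. merus A and An. coluzzii D together, where the limma adjusted p was at most 0.077. The difference was not called at 10% (-0.82, limma adjusted p = 0.35) or 20% (0.03, limma adjusted p = 0.98). At 30% it was already opposite (1.54, limma adjusted p = 0.044). These 4 genes, too, were named after their values were seen, as the 2 with the largest difference at 0% in each direction among the 79 and 80 that crossed and met the naming rule.

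**Figure D5:**
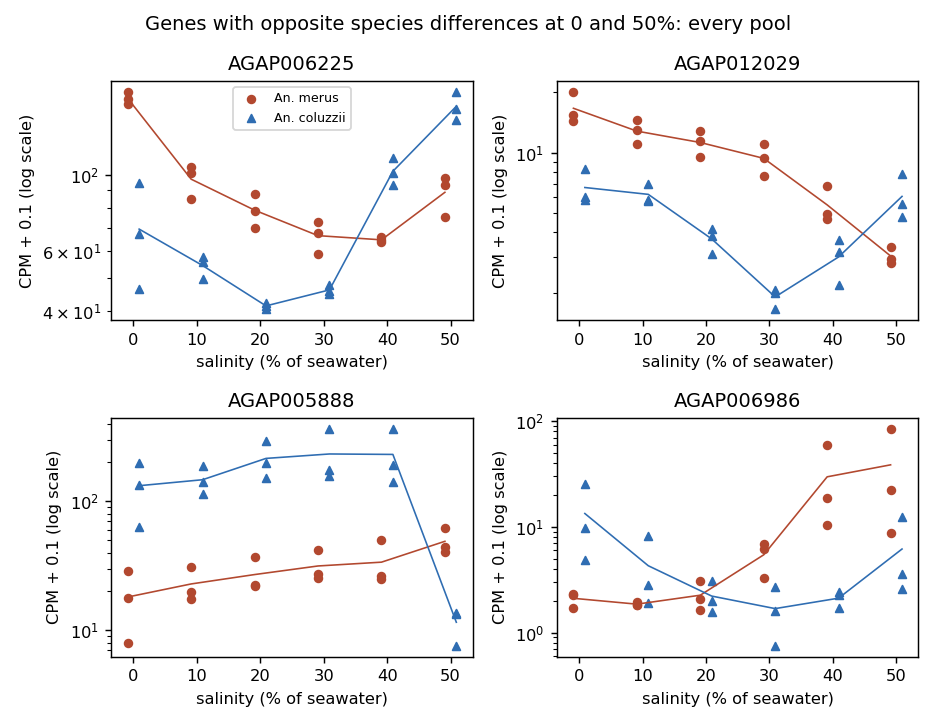
Level of 4 genes with opposite species differences at 0 and 50%, in every pool at every salinity (horizontal axis, % of seawater; vertical axis, CPM + 0.1 on a log scale); red circles are An. merus, blue triangles An. coluzzii, and lines join group means. AGAP006225 and AGAP012029 start higher in An. merus and end higher in An. coluzzii, and AGAP005888 and AGAP006986 do the reverse.

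Finally, the differences at 0% were set beside the responses to salt, measured between 10% and higher salinities so that no library was shared. In An. merus 34.0% of all genes fell and 27.6% rose between 10 and 50%. Among the 2399 genes higher in An. merus at 0%, 51.6% fell and 14.7% rose. Among the 2342 lower ones, 21.2% fell and 35.1% rose. Genes that stood higher in An. merus in fresh water thus fell there with salt more often than all genes, by count and in the median (-0.36 log2 units, against -0.04 for all genes). In the fits that left out a pool at 0%, 48.6 to 54.6% of the higher genes and 18.1 to 28.2% of the lower genes fell, and without An. merus A and An. coluzzii D together 45.1% and 30.01%. The share of rises among the lower genes was above the 27.6% of all genes, but not in narrower sets. Of the lower genes also called with the 6 pools alone 26.6% rose, and of those at least 2-fold lower 22.3%. Both shares were still above those of the higher genes in the matching sets, 15.01% and 10.8%. Without An. merus A and An. coluzzii D together 28.4% of the lower genes rose, against 30.1% of all genes. The shares also depended on the scaling. With library totals 41.4% of all genes fell and 19.1% rose between 10 and 50% in An. merus. Of the higher genes 61.0% fell and 10.8% rose with that scaling, and of the lower genes 28.0% and 25.4%. Between 10 and 30% An. merus changed little: 81 genes fell (0.743%) and 31 rose (0.284%), and of the genes higher at 0% 43 fell (1.79%).

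In An. coluzzii the genes higher in An. merus at 0% also fell more often than all genes between 10 and 30%. Between 10 and 50% their share was close to that of all genes. Between 10 and 30%, where 24.0% of all genes fell and 19.9% rose, 35.9% of the genes higher in An. merus at 0% fell and 12.96% rose. Of the lower genes 18.02% fell and 24.3% rose. In narrower sets of the lower genes falls outnumbered rises. Of those also called with the 6 pools alone 20.6% rose and 25.2% fell, and of those at least 2-fold lower 16.9% and 23.7%. Between 10 and 50%, where 35.4% of all genes fell and 31.8% rose, 36.4% of the higher and 37.8% of the lower genes fell, and 27.6% and 28.8% rose. Restricted to genes called with the 6 pools alone as well, the 10 to 30% contrast was smaller, 33.3% of the higher and 25.2% of the lower genes fallen, while in An. merus between 10 and 50% it was 49.1% and 23.6%. Without An. merus A and An. coluzzii D together the 10 to 30% shares in An. coluzzii were 30.6% and 26.6% fallen, and 19.6% of the higher genes rose. Across all 10905 genes, which share libraries and scaling and are not independent, the correlation of the difference at 0% with these responses was weak, -0.199 and -0.168 for An. merus from 10 to 30 and 10 to 50%, and -0.100 and 0.077 for An. coluzzii from 10 to 30 and 10 to 50%.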

How the data were processed

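Poly(A)-selected RNA of pooled whole larvae was made into TruSeq libraries, per the labels. The submitters' processing notes name the tools Trimmomatic, Bowtie2, TopHat2, HTSeq and edgeR, without versions; no build or annotation is stated. For 10905 genes the deposited table lists a signal in each library. It is CPM scaled by TMM (a trimmed mean of log ratios between libraries, which assumes that most genes do not change). The values were filtered and ribosomal RNA was removed, as the authors' name for the file says, without the rule of the filter. Dividing by the worth of a single read gave whole numbers within 0.001 for 100% of values, and these were used as recovered reads, on which edgeR called 4677 genes. A count of 0 allows up to 3 reads, 0.348 CPM in An. merus A; floors cover counting error only.

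The main test was limma 3.58.1 (R 4.3.3) on log2(CPM + 0.5), a scale that understates the change of low genes, with 12 group means over 36 libraries, a mean trend, two-sided, and Benjamini-Hochberg adjustment over all genes with a threshold of 0.05. The lists of genes by function could not be applied without names. The comparison, tests and naming rule were chosen with earlier results of these data known, and near-absent genes, crossing genes, responses from 10% and consecutive identifiers were added after the values were seen. At 0% no pair of pools of a species agreed within sampling noise. Alternatives included edgeR 4.0.16 and DESeq2 1.42.0 on the recovered reads. Figures used matplotlib 3.10.9 in Python 3.11.15.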

Additional observations from a re-analysis of the deposited data

Results flagged for a closer look

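The species difference varied with salinity for 7844 genes by the interaction F test of limma (adjusted p under 0.05), so a difference between the groups at 0% need not have the same size elsewhere. Among the genes named here the test was passed by AGAP001354 (limma adjusted p = 0.024), AGAP005598 (6.2e-11), AGAP006225 (5.3e-10), AGAP012029 (5.5e-09), AGAP005888 (6.5e-08), AGAP006986 (5.1e-05), AGAP012436 (6e-14), AGAP007150 (4.8e-10), AGAP001067 (0.025) and AGAP008911 (0.023). AGAP010613 had a log2 difference of 8.17 ± 0.33 at 0% and 7.81 ± 0.33 at 50% (SE; F test, limma adjusted p = 0.26), and AGAP007187 of -8.14 ± 0.22 and -8.96 ± 0.22 (limma adjusted p = 0.052).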

How the results depend on the processing

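Using the 6 libraries at 0% alone gave 2092 genes, 1101 higher and 991 lower, in place of 4741, 2399 and 2342; that fit has 4 residual degrees of freedom in place of 24 and uses the wider spread of these pools. No other alternative moved these counts by over 1.5 times: leaving out a pool gave 3744 to 5030 genes (1890 to 2480 higher, 1854 to 2550 lower). Genes called in the same direction at all 6 salinities numbered 1392 to 1466 with a pool left out. The replicate letters gave no established pairing, since the groups share only A and B (correlation of deviations 0.162 and 0.216), and with the replicate letter as a block (replicate block) the count at 0% was 4444. The number at least 2-fold different was 721 with a pseudocount of 2 CPM and 677 with a filter at a mean of 5 CPM, which tests fewer genes. Of the genes named in the report other than for runs of identifiers, AGAP006986 alone lost its call in an alternative run, and none reversed. Of those named for runs, AGAP002849, AGAP002850 and AGAP002853 lost their calls with the 6 pools alone (limma adjusted p = 0.22, 0.061 and 0.073). Depth limits the genes near absent from An. merus, whose pool A has a floor of 0.348 CPM.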

Other observations

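A gene with a large species difference at 0% was followed by another in the same direction, at the next AGAP identifier, more often than genes in general, given here as a description with no test; whether consecutive identifiers lie side by side in the genome is not stated. Of 373 genes at least 2-fold higher in An. merus at 0% whose next identifier is in the table, 42 (11.3%) were followed by another such gene, against 4.195% of all 9106 consecutive pairs. Of 498 genes at least 2-fold lower, 67 (13.5%) were followed by another, against 5.55% of all pairs. The opposite direction followed in 31 genes after higher ones (8.31%, above the 5.55% of all pairs) and in 19 after lower ones (3.82%, against 4.195% of all pairs), so after higher genes both directions were more frequent than over all pairs. With the 6 pools alone, library totals or quantile normalization the shares ran from 10.9 to 11.5% for higher and from 12.5 to 13.8% for lower genes.

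The longest runs in identifier order held 5 genes, whose identifiers are not all consecutive. The run from AGAP010827 to AGAP010832 was lower in An. merus throughout, with 0 reads in the 3 An. merus pools at 0% for 4 of its 5 genes and 0.069 CPM for AGAP010830, which averaged 15.3 CPM in An. coluzzii. The 4 genes with 0 reads were scarce in An. coluzzii too, with means of 1.11 to 2.01 CPM. All 5 were called in the same direction at all 6 salinities. The run from AGAP002849 to AGAP002857 was higher in An. merus, from AGAP002852 with 14.9 against 4.86 CPM to AGAP002849 with 228 against 113 CPM. With the 6 pools alone 2 of its 5 genes, AGAP002852 and AGAP002857, were called by limma (adjusted p = 0.003 and 0.00055). AGAP002852, AGAP002853 and AGAP002857 were called in the same direction at all 6 salinities, and AGAP002849 and AGAP002850 were not. Whether genes of a run are near-identical copies that share reads was not tested.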
